A study of Pimephales promelas with 270 samples.

Results

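The response of 5-day fathead minnow larvae to 48 h in 3.3 mg/l propranolol, the high dose of the study, was read from 10 high-dose and 10 control libraries. All are labelled as larvae of 5 days post fertilization and share the library code of their exposure set. They were chosen by their labels (numbers 1 to 14 for the controls and 31 to 44 for the high dose) and form 20 of the 266 libraries in the deposited table. The fathead minnow (Pimephales promelas) is a freshwater fish common in toxicity tests. The study exposed larvae of 4, 5 and 6 days for 6, 24 or 48 h at 0.66 or 3.3 mg/l and thus allows the response to be compared across ages and durations. The 10 libraries of the set at 0.66 mg/l entered the fit only to estimate the spread between libraries.

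Propranolol blocks beta-adrenergic receptors without selecting among their subtypes. These receptors sit in the cell membrane and bind adrenaline and noradrenaline. They couple to G proteins that raise cyclic AMP, and in fish as in mammals they set the rate and force of the heartbeat. Beta blockers reach rivers with treated waste water.

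The transcripts carry bare identifiers, 0 of which were found in the RefSeq gene table, and the files do not pair them with gene names. No receptor, pathway or tissue marker could therefore be looked up, the labelled stage could not be checked against marker genes, and only 2 transcripts that rose and 2 that fell are named. The labels give no strain and do not say whether a library holds 1 larva or several. Whether the age is that at the start or the end of the exposure is also not given. Separate vessels for the libraries of a group are not stated, and the p-values therefore measure only how far these samples spread, which may be technical. A treatment text attached to each sample describes ethinyl estradiol, but the title, the design text and the dose labels describe propranolol and were followed. A change in a whole larva can come from fewer cells of a type or from less RNA per cell, which cannot be told apart here.

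Library totals were 11.6 to 19.5 M counts in the controls (median 14.3 M) and 6.65 to 18.4 M counts at the high dose (median 16.0 M). Between 32835 and 34574 of the 34856 transcripts had a count above 0 in a library. Libraries of a group differed by more than counting noise, since in the closest of 90 pairs within a group chi-square was 7.60 times its degrees of freedom. Pairs across groups were not compared, and this does not exclude 2 libraries made from the same larvae. Controls 5 and 14 and high-dose library 43 stood apart, with a median Spearman correlation to their own group of 0.946, 0.935 and 0.946, where the middle control had 0.970 and the middle high-dose library 0.974. Library 43 was also the one with 6.65 M counts. Low-dose library 25 stood apart too, at 0.943, and the fits without the libraries that stood apart also left it out. An apparent age was read for each library from 500 transcripts that change with age plus duration in the controls of the other 8 sets. This axis takes the labelled age as that at the start of the exposure. Fitted without the set in question, it placed the 6-day, 24 h controls at 7.31 days, where age plus duration is 7. The 6-day, 48 h controls came out at 6.93 days, where it is 8. Both misses are larger than the difference between the doses below, and the other control sets were placed closer. Apparent age was 6.96 ± 0.10 days at the high dose (SD, n = 10) and 6.78 ± 0.28 days in controls (n = 10), a difference of 0.185 days (two-sided permutation test, p = 0.0619). When 1 library was left out it ranged from 0.125 to 0.220 days, and p fell below 0.05 without control 1, 4, 10 or 13 (permutation p = 0.0499, 0.0334, 0.0487 and 0.0247). Controls 14 and 5 had the lowest values, 6.24 and 6.48 days, and without the libraries that stood apart the difference was 0.0638 days (p = 0.382). Its part in the results was not tested beyond a fit with apparent age as a covariate.

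The high dose changed 365 of 29886 transcripts tested, or 1.22% (edgeR quasi-likelihood test, false discovery rate 0.05). Rises outnumbered falls, with 283 transcripts up (0.947% of those tested) and 82 down (0.274%). The median transcript among the rises changed 1.53-fold (log2 fold change 0.61). Among the falls it changed 1.46-fold (-0.54). Among these calls, changes of more than 2-fold were seen in 45 transcripts that rose and 8 that fell. Of all 29886 tested, called or not, 172 had a fitted change of more than 2-fold. The transcripts that rose took 0.714% ± 0.046 of the counts in controls (SD, n = 10) and 1.11% ± 0.11 at the high dose (n = 10), a description of the calls themselves. With apparent age as a covariate the count was 225, of which 185 rose and 40 fell, and 194 of these were among the 365. Without the libraries that stood apart it was 332, of which 243 were among the 365.

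**Figure D1:**
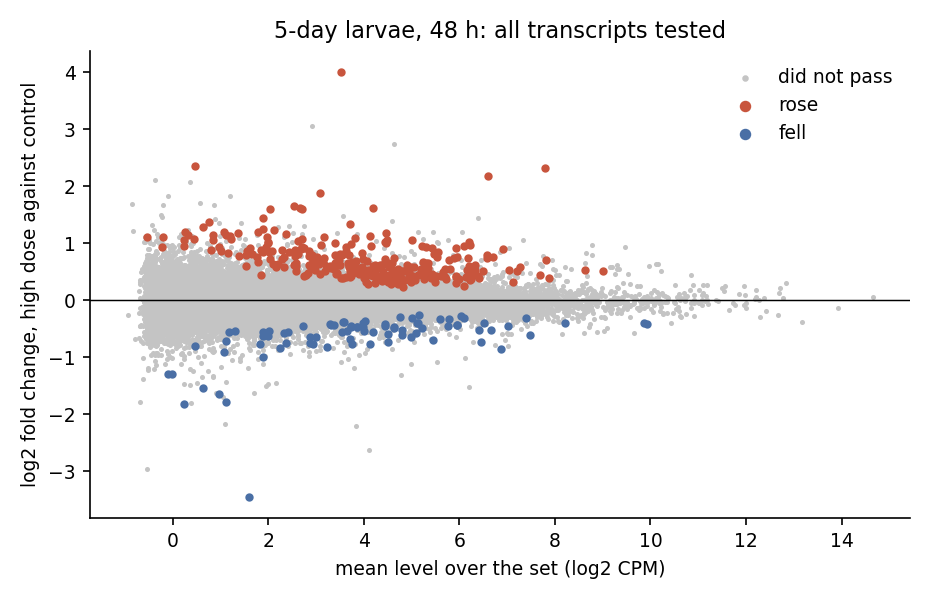
Each point is a transcript tested in 5-day larvae at 48 h, with its mean level over the set in log2 CPM on the horizontal axis and its log2 fold change at the high dose against control on the vertical axis. The 283 transcripts that rose (red) outnumber the 82 that fell (blue), and the calls lie mostly at middle and high levels, with sizes from 0.24 upwards.

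The share of transcripts called varied with their read numbers. Among the 6376 transcripts with a mean below 1 on the log2 CPM scale (CPM, counts relative to the TMM-scaled library size), 15 rose and 6 fell. Among the 9269 with a mean of 3 to 5, 127 rose and 32 fell, and among the 5413 above 5, 74 rose and 24 fell. Called transcripts had a median size that went from a log2 fold change of 1.14 in the lowest class to 0.50 in the highest. These are sizes of calls alone, and a small change passes less easily at few reads. The sizes therefore do not compare the response between the classes. These classes follow read numbers, which also depend on transcript length.

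In 51 of the 29886 transcripts (0.171%) every high-dose library lay above every control library, and 50 of these were among the calls. In 2 transcripts (0.00669%) every high-dose library lay below every control, and both were called. The first had 36.6 to 51.6 CPM in controls (median 42.5) and 26.3 to 36.1 at the high dose (median 30.9), and its log2 fold change was -0.48 ± 0.10 (SE; edgeR, adjusted p = 0.00408). The second had 0.608 to 1.98 CPM in controls and 0.271 to 0.603 at the high dose, and its log2 fold change was -1.29 ± 0.30 (SE; edgeR, adjusted p = 0.0193).

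Relative to its size, the count of falls varied more than that of rises when 1 library was left out. The count of 82 became 53 without control 11, 48 without control 14, 52 without high-dose library 35, 44 without library 37 and 47 without library 41. Over the 20 fits that left out 1 library the count of falls ran from 44 to 88. The count of rises, 283 in the main fit, ran from 208 to 286.

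Rises had neighbours among the rises. Of the 262 transcripts that rose and had a tested transcript next to them by identifier number, 36 (13.7%) had a neighbour that also rose, where 1.55% of all tested transcripts had one. For falls the figures were 4 of 75 (5.33%) and 0.465%. In 1 case a transcript that rose stood next to one that fell. Whether consecutive numbers belong to the same gene is not stated, and variants of a gene could share reads.

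FMt045902 rose, and each high-dose library lay above each control. The controls had 75.5 to 115 CPM (median 92.2) and the high-dose libraries had 276 to 792 CPM (median 371). This is a 5.01-fold rise (log2 2.32 ± 0.18, SE; edgeR adjusted p = 8.99e-10). Within the high dose the values were uneven: libraries 31, 32, 43 and 44 had 735, 583, 792 and 603 CPM. The other 6 libraries lay between 276 and 407 CPM. The 4 high values thus came from 2 runs of adjacent library numbers, 31 with 32 and 43 with 44. Over all transcripts, adjacent numbers were hardly more alike than other libraries of a group, with a consensus correlation of 0.00905.

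FMt045900 had the largest fitted rise of the 264 that met the naming rule, 16.0-fold (log2 4.00 ± 0.84, SE; edgeR adjusted p = 0.0104), and its groups overlapped. The controls had 0.433 to 3.34 CPM (median 0.891). At the high dose 6 libraries had 28.5 to 42.4 CPM, while libraries 32, 38, 43 and 31 had 7.33, 5.01, 1.22 and 0.550 CPM. Among the 78 control libraries of the other 8 sets, 29 (37.2%) had more than 10 CPM, with 2 to 6 such libraries in each set. In the 5-day, 48 h controls 0 of 10 did. In each of the other 8 sets its high-dose effect did not pass the test, with log2 fold changes from -1.19 (5 days, 24 h, edgeR adjusted p = 0.858) to 1.31 (6 days, 24 h, edgeR adjusted p = 0.674). In the 5-day, 48 h set it missed the threshold with limma-voom (3.49, adjusted p = 0.127) and with sums of adjacent libraries (4.17, adjusted p = 0.132). Its number is 2 below that of FMt045902, and the transcript between them was at a log2 fold change of 0.01 (edgeR adjusted p = 0.993).

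**Figure D2:**
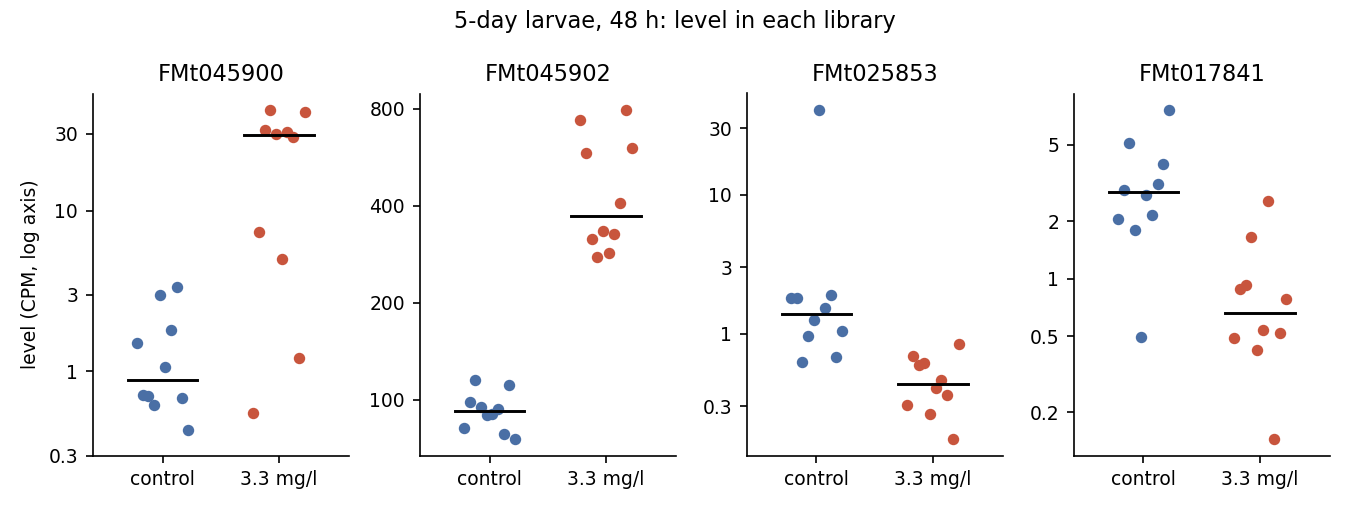
Each point is 1 library, with its level in CPM on a log axis that differs between panels, for the 10 control libraries (blue) and the 10 libraries at 3.3 mg/l (red) of 5-day larvae at 48 h, and lines are medians. The groups do not overlap for FMt045902, 4 high-dose libraries of FMt045900 lie near or within the control range, and a single control at 40.7 CPM stands far above the others for FMt025853.

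FMt025853 had the largest fitted fall of the 71 that met the rule, at -3.44 ± 0.78 on the log2 scale (SE; edgeR, adjusted p = 0.0207). Control 8 had 40.7 CPM and the other 9 controls had 0.620 to 1.89 CPM. The high-dose libraries had 0.174 to 0.844 CPM (median 0.436, against 1.38 in controls), which is 1 to 14 counts per library. Without control 8 the log2 fold change was -1.39 and did not pass (edgeR adjusted p = 0.0813), and with limma-voom it was -1.99 (adjusted p = 0.208). With apparent age as a covariate it was -2.97 and did not pass (edgeR adjusted p = 0.128). Controls of the other 8 sets ranged from 0 to 376 CPM, with medians of 267 CPM in the 4-day, 6 h set and 0.886 CPM in the 6-day, 48 h set. In those 8 sets the high-dose effect on FMt025853 did not pass, with log2 fold changes from -1.60 (4 days, 24 h) to 0.03 (4 days, 6 h).

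FMt017841 fell by 1.79 on the log2 scale, with a standard error of 0.45 (edgeR adjusted p = 0.0391). The controls had 0.498 to 7.62 CPM (median 2.83) and the high-dose libraries 0.145 to 2.56 CPM (median 0.662). The groups overlapped, with control 7 at 0.498 CPM and high-dose library 40 at 2.56 CPM. In the other 8 sets its log2 fold change lay between -0.15 and 0.57 and did not pass. The call missed the threshold in 14 of the 20 fits that left out 1 library, with adjusted p between 0.0085 and 0.307 over all 33 alternatives, and a log2 fold change of -1.57 (edgeR adjusted p = 0.133) without the libraries that stood apart.

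The transcripts called at 5 days and 48 h were then read in the other exposure sets, each with controls of its own. Of the 283 that rose, 273 of 283 tested (96.5%) were above 0 in the 6-day, 48 h set and 265 of 281 (94.3%) in the 4-day, 48 h set, where 49.7% and 48.2% of all tested transcripts were above 0. The rises passed the test in 78 cases in the 6-day, 24 h set (background 0.586%) and in 2 in the 4-day, 24 h set (0.0102%). At 24 h the share above 0 was 93.2% at 5 days, 91.8% at 6 days and 77.1% at 4 days, where 48.3%, 49.5% and 49.7% of all tested transcripts were. At 6 h it was 63.9% at 5 days, 66.3% at 6 days and 43.1% at 4 days. The shares of all tested transcripts there were 46.8%, 49.3% and 49.5%, so the 4-day, 6 h share lay below that of all. At 48 h their median log2 fold change was 0.64 in 6-day and 0.34 in 4-day larvae. In 5-day larvae it was 0.24 after 24 h and 0.05 after 6 h. The 0.61 of the set that chose them was used in the choice and is not comparable with these. In the opposite direction 0 of the 365 passed in any other set. The highest shares over all tested transcripts were those at 6 days and 48 h, where 2.48% rose and 1.05% fell. In the 6 h sets 0 transcripts were called. At such shares a count of 0 shows little. At 4 days and 24 h, where 0.0034% of all transcripts fell, 0 of the 82 falls passed.

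Of the 82 transcripts that fell, 92.7% were below 0 in the 6-day, 48 h set (76 of 82), 82.9% in the 5-day, 24 h set, 75.6% in the 4-day, 48 h set and 64.6% in the 5-day, 6 h set, where 50.3%, 51.7%, 51.8% and 53.2% of all tested transcripts were below 0. Their median log2 fold change was -0.25, -0.12, -0.15 and -0.03 in these sets. In the other 4 sets the share below 0 was 61.0% (4 days, 24 h), 60.5% (6 days, 24 h), 62.2% (6 days, 6 h) and 45.1% (4 days, 6 h), where 50.3% to 50.7% of all tested transcripts were below 0. In the last of these the median was above 0, at 0.03. The falls passed the test in 9 cases in 6-day larvae (background 1.05%) and in 4 in 4-day larvae (0.136%) after 48 h, and in 1 in the 6-day, 24 h set (0.104%).

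**Figure D3:**
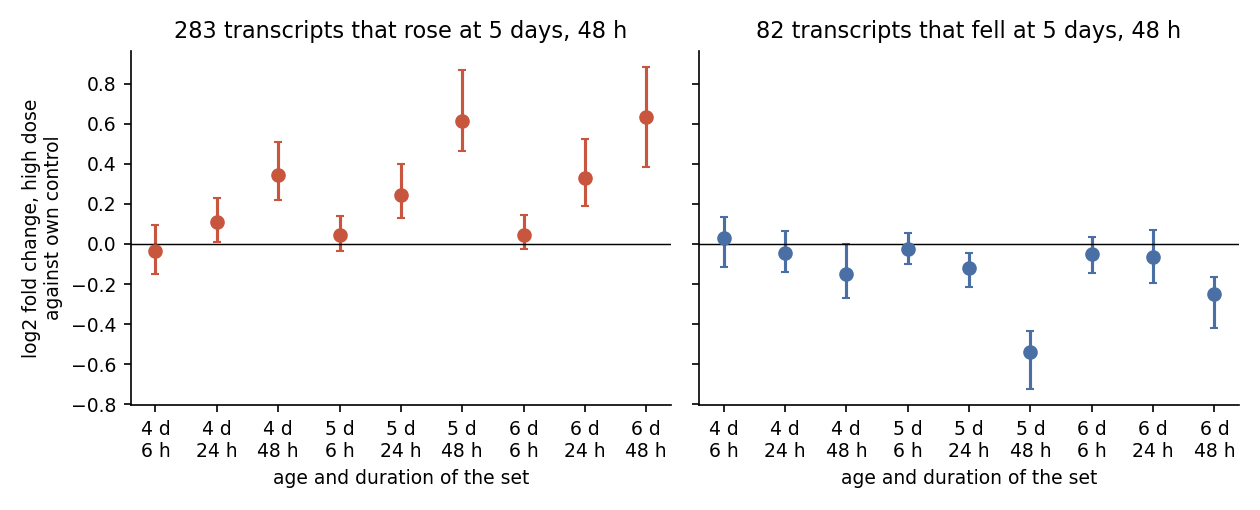
Points are the median log2 fold change at the high dose against the controls of the same set, and bars run from the first to the third quartile over transcripts, for the 283 transcripts that rose (left) and the 82 that fell (right) at 5 days and 48 h. The rises lie near 0 at 6 h and above 0 at 24 and 48 h at each age, and the values of the 5-day, 48 h set itself were used to choose the transcripts.

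Read the other way, lists chosen in other sets give a measure that did not use the 5-day, 48 h libraries. Of the 252 transcripts that rose at 4 days and 48 h (0.854% of those tested there), 251 were tested at 5 days and 237 (94.4%) were above 0, where 49.0% of all transcripts tested at 5 days were. The 73 that passed are 29.1% of that list, where 0.947% of all transcripts rose, and 25.8% of the 283 rises. Of the 750 that rose at 6 days and 48 h (2.48%), 741 were tested at 5 days and 697 (94.1%) were above 0. The 179 that passed are 24.2% of that list, against the same 0.947%, and 63.3% of the rises. The list from 4 days had a median log2 fold change of 0.38 at 5 days and 0.52 at 6 days, and the list from 6 days had 0.23 at 4 days and 0.30 at 5 days.

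The transcripts that rose at both 4 and 6 days at 48 h show the response in each 5-day larval library. Of these 134, 133 were tested, 129 (97.0%) were above 0 at 5 days and 60 (45.1%) passed the test for a rise, where 0.947% of all transcripts did. FMt045902 is among them. Their median log2 fold change was 0.48, where all tested transcripts had -0.0046. As the median difference in log2 CPM from the control mean, the 10 controls lay between -0.13 and 0.11 and the 10 high-dose libraries between 0.20 and 0.67, with a median of 0.47. The groups did not overlap. Library 35 was the lowest, at 0.20, and libraries 37, 43 and 44 were the highest, at 0.64, 0.62 and 0.67. The order was not that of FMt045902, since library 37 had 335 CPM of that transcript. Only 2 transcripts fell at both other ages, which is too few to show a shared fall. Both also fell at 5 days, with a median of -0.68, where 0.274% of all tested transcripts fell. In 0 of the 2 did every high-dose library lie below every control.

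**Figure D4:**
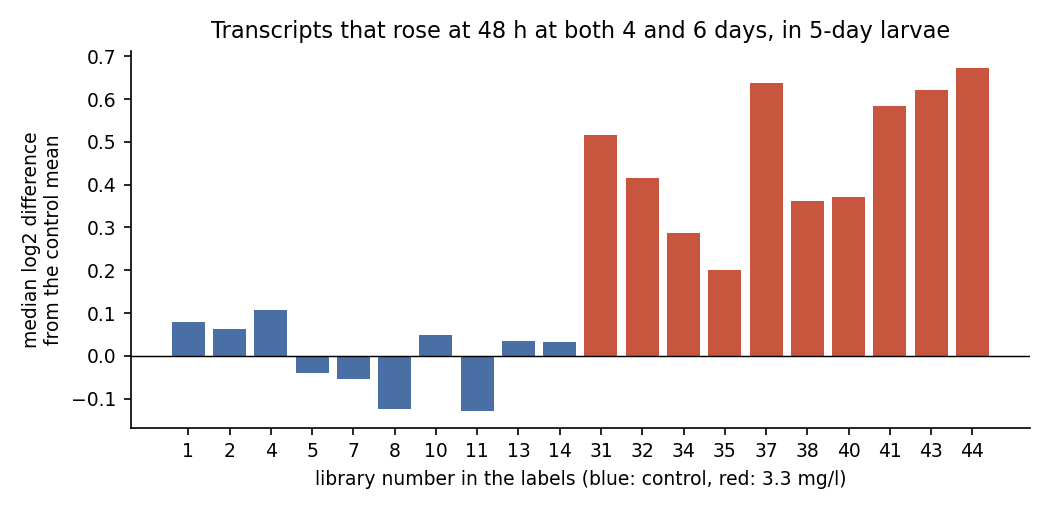
Bars give, for each 5-day library at 48 h, the median over 133 transcripts of the difference in log2 CPM from the control mean. The transcripts were chosen in the 4-day and 6-day sets. All 10 libraries at 3.3 mg/l (red) lie above the highest of the 10 controls (blue), from 0.20 in library 35 to 0.67 in library 44.

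The size of the high-dose effect at 48 h was compared between ages with the interaction test, with each effect taken against its own controls. Between 5 and 4 days 0 of 32297 transcripts differed (edgeR, false discovery rate 0.05), and limma-voom likewise found 0. An unadjusted p below 0.05 was seen in 2223 of the 32297. Some transcripts fall below 0.05 by chance alone, so this count does not by itself show differences between the ages. Dropping the libraries that stood apart lowered the count to 1506 of 32159, and again 0 differed. Between 5 and 6 days 12 differed (0.0372%), of which 11 had the lower effect at 5 days. Of these 12, 10 had risen at 6 days, where 2.48% of all tested transcripts rose. At 5 days 1 was called, where 1.22% of all were. Their median log2 fold change was 1.10 at 6 days and 0.02 at 5 days. The test that chose them used these same effects, so these values only describe the choice. With limma-voom 3 differed, and 2 with sums of adjacent libraries. Age and any other difference between the sets, which carry separate library codes, cannot be told apart. The named transcripts did not pass either test. For FMt045902 the difference was 0.42 ± 0.27 (SE, edgeR adjusted p = 0.761) from 4 days and -0.33 ± 0.28 (SE, adjusted p = 0.896) from 6 days, which does not show equal effects.

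Within 5-day larvae the effect was compared between durations. Between 6 and 48 h it differed for 50 of 32082 transcripts (0.156%), 46 of them higher at 48 h. Of the 50, 47 were among the 365, which are 1.22% of the 29886 tested in the 5-day, 48 h set. The 365 were chosen by the same 48 h effect, and 0 were called at 6 h. The overlap therefore follows largely from the choice. FMt045902 was one of the 50, with a difference of 2.22 ± 0.25 (SE, edgeR adjusted p = 2.43e-09). From 24 to 48 h the effect differed for 12 transcripts (0.0374%), 5 higher and 7 lower at 48 h. Without the libraries far from their groups at any dose in the 5-day sets of all durations, these counts were 100 and 22. FMt045902 did not pass, at 0.56 ± 0.25 (SE, edgeR adjusted p = 0.9999), nor did FMt045900, at 5.19 ± 1.18 (SE, edgeR adjusted p = 0.0774). Fitted without the low dose, FMt045900 did pass, at 5.19 (edgeR adjusted p = 0.0352), and over the 6 alternatives adjusted p ran from 0.0352 to 0.543. Both comparisons use the same 48 h libraries, and the sets of each duration have codes of their own. The 24 transcripts that rose at 5 days and 24 h (0.0795%) did not all keep that direction. At 48 h 12 of the 24 rose, where 0.947% of all transcripts did, and 17 (70.8%) were above 0, where 49.0% of all were, with a median of 0.45 at 48 h and, as the set that chose them, 1.00 at 24 h.

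**Figure D5:**
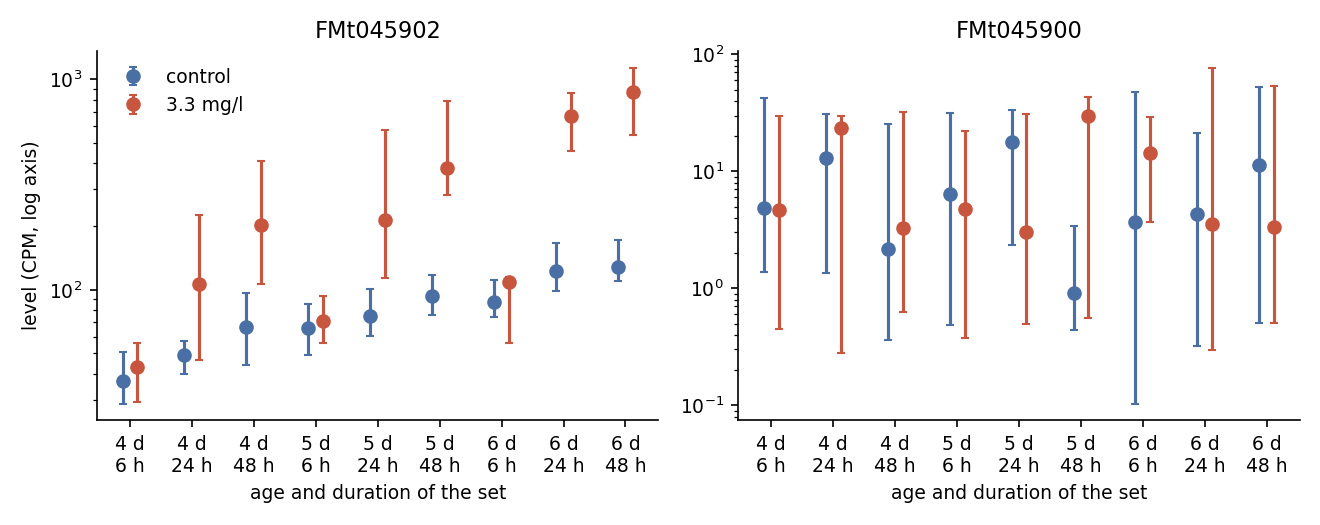
Points are medians and bars run from the lowest to the highest library, in CPM on a log axis, for controls (blue) and 3.3 mg/l (red) in the 9 exposure sets, 8 to 10 libraries a group. FMt045902 is apart from its controls in the 5-day set at 48 h (280 to 787 against 76.3 to 117 CPM after scaling over all libraries). Its ranges also do not overlap in the 4-day, 48 h set, the 5-day, 24 h set and the 6-day sets of 24 and 48 h. FMt045900 reaches above 20 CPM in each group but the 5-day, 48 h controls, which stay below 10 CPM.

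Across the 5-day sets the control medians of FMt045902 were 65.7, 75.2 and 93.9 CPM after 6, 24 and 48 h, a description with no test. At the high dose the 5-day medians were 71.4, 213 and 377 CPM. The ranges overlapped at 6 h (56.1 to 93.1 against 49.1 to 85.6 CPM) and not at 24 h (113 to 576 against 60.2 to 101). These levels, scaled over all libraries, differ slightly from those scaled within the set.

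The distance of each library from the mean of the others in its group was compared between the doses. It was 0.361 ± 0.109 on the log2 CPM scale at the high dose (SD, n = 10) and 0.416 ± 0.120 in controls (n = 10), a difference of -0.0544 (two-sided permutation test, p = 0.275). Without high-dose library 43 the difference was -0.0876 (permutation p = 0.00924), past the threshold on which the value with it was not, and without all libraries that stood apart it was -0.0333 (permutation p = 0.0351). The distances were not recomputed for these settings, and the group means still held the libraries left out. A difference in spread without those libraries was therefore not tested.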

How the data were processed

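Whole-number read counts per transcript were used as the authors deposited them. The reads had been mapped to known transcripts of the species, as the design text says, and the SENSE mRNA-Seq kit V2 was the library kit, per the labels' protocols. The submitters' processing notes list edgeR 3.26.8, limma 3.40.6 and bcl2fastq 2.19.1, with no role. Aligner and counting rule: not given in the sources used here. Hence reads shared by similar transcripts make single counts uncertain. Of 270 labelled samples, 4 of other sets were not analysed here.

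The 3 dose groups of the set were fitted with edgeR 4.0.16 (R 4.3.3): TMM scaling, filterByExpr, robust quasi-likelihood F-tests and Benjamini-Hochberg adjustment over all transcripts tested. Standard errors are the log2 fold change divided by the square root of F. Interactions were fitted over all libraries of the 48 h sets, or of the 5-day sets. Log2 CPM used a prior count of 2. The naming rule took the 2 largest rises and falls with a mean log2 CPM of at least 1, an adjusted p below 0.05 and at least 9 of 10 libraries of each group beyond the median of the other. Permutation tests used 100000 resamples (SciPy 1.17.1). Alternatives used limma 3.58.1 and DESeq2 1.42.0. Libraries far from their group had a median Spearman correlation over 3 median absolute deviations below that of the set. The age axis held 500 transcripts. When each other control set was left out in turn, the 6-day, 48 h controls were placed at 6.93 days, against an age plus duration of 8. Procedures were tested on simulated data. The groups compared, the lists and the tests were chosen with earlier results of these data known. Precision is limited by library totals of 6.65 to 19.5 M counts.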

Additional observations from a re-analysis of the deposited data

Results flagged for a closer look

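The 2 groups of 10 libraries were examined for a library that stands apart on 9 measures each, and 3 of these 18 looks found one. They concern 2 libraries, are not independent, and chance gives about 1 in 20 for a single look. The number found depends on the measures chosen. High-dose library 43 also had the fewest transcripts above 0 in its group, 32835, where the group median was 34483. High-dose library 43 had the lowest total of its group, 6.65 M counts, with the next at 13.9 M. The same library lay farthest from the mean of its group, at 0.660 on the log2 CPM scale, with the next at 0.396. Control 8 had 40.7 CPM of FMt025853, with the next control at 1.89 CPM, and without it the fall of that transcript did not pass. FMt025853 was named by a fitted fall that used control 8, so the rate of 1 in 20 does not hold for this look.

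The high-dose effect on FMt045902 differed between 48 and 6 h at 5 days by 2.22 on the log2 scale. Tested as a difference between exposure sets, the high-dose effect differed for 12 transcripts between 5 and 6 days at 48 h, for 12 between 48 and 24 h at 5 days and for 50 between 48 and 6 h at 5 days.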

How the results depend on the processing

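The 365 changed transcripts became 648 with DESeq2 (444 rose, 204 fell), 222 with sums of adjacent library numbers (33 fell), 235 with all libraries thinned to the smallest total (182 rose, 53 fell) and 225 with apparent age as a covariate (185 rose, 40 fell). Leaving out 1 library gave 252 to 372 changed, 208 to 286 rises and 44 to 88 falls. With apparent age as a covariate and the far libraries left out, an alternative added after seeing the data, the count was 392. The other 8 alternatives gave 317 to 486. The interaction of 5 with 6 days, 12 transcripts, became 2 without the low dose, 2 with those sums and 3 when fitted by limma-voom. That of 48 with 24 h, also 12, became 4 with those sums and 22 without the far libraries of all 5-day sets, and that of 48 with 6 h, 50, became 100 without them. The cause of these shifts was not tested. By construction, thinning leaves fewer counts and sums leave fewer samples, and their part in the shifts was not tested either. The difference in apparent age, 0.185 days, was 0.2002 with double the transcripts (permutation p = 0.0483) and 0.125 to 0.220 without 1 library (permutation p = 0.0247 to 0.125). That in distance was -0.0333 without the far libraries, a setting added after seeing the data, and -0.0876 to -0.0233 without 1 library. The distances were not recomputed after leaving libraries out. FMt045902 passed under all 33 alternatives, FMt045900 missed under 4, FMt025853 under 8 and FMt017841 under 21, and 0 of these values changed sign. No paired analysis was possible because the groups compared share no library number. Transcripts under a mean log2 CPM of 1 were rarely called at this depth.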
